A study of Ovis aries with 36 samples.

Results

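ATP2A2, CASQ2 and PVALB, 3 genes of calcium handling, were followed through 9 muscles of the lamb. Each was chosen as the assembled locus with an Ensembl gene whose span in the Oar_v3.1 genome equals the one given here, which made 3 loci of 31136 in all. Of these 31136 loci, 24763 carry an Ensembl gene. ATP2A2 (ENSOARG00000016226) lies on chromosome 17 from 53803321 to 53860163, CASQ2 (ENSOARG00000020163) on chromosome 1 from 92170833 to 92243108, and PVALB (ENSOARG00000019026) on chromosome 3 from 180006084 to 180067626. These are the spans of whole assembled loci, over 56843, 72276 and 61543 bases, and all reads assigned to a locus were counted under 1 name. The counts do not show which part of a span the reads came from. No other assembled locus overlapped any of these spans.

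RNA-Seq was done on 36 samples from 4 unrelated male Poll Dorset cross-bred lambs of 14 months, raised on grassland with crop and grain supplements until slaughter. None of the lambs had an experimental treatment. Every lamb gave 1 sample from the superficial belly of each of 9 muscles, listed here by region. From the shoulder came supraspinatus (SS), and from the loin psoas major (PM) and longissimus lumborum (LL). The rump and thigh gave gluteus medius (GM), adductor (AD), semitendinosus (ST), rectus femoris (RF), semimembranosus (SM) and the cranial part of gluteobiceps (GB). Each muscle therefore had n = 4, and the lamb was part of every model. A sample is ground whole muscle from 1 site, so that fewer cells of a type and less RNA per cell cannot be told apart in any value below.

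Contraction of a muscle fiber starts when calcium leaves the sarcoplasmic reticulum and ends when it is removed from the cytosol. ATP2A2 encodes SERCA2, the pump that returns calcium to the reticulum in slow-twitch fibers and in the heart, while fast-twitch fibers use mainly the product of another gene of the family. CASQ2 encodes the cardiac form of calsequestrin, which stores calcium inside the reticulum and is also made in slow fibers. PVALB encodes parvalbumin, a soluble buffer that binds calcium in the cytosol of fast fibers and speeds their relaxation, and that is known for its abundance in the fast muscles of small mammals.

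Totals ran from 3699148 to 6427422 counts per sample, and 4 short loci without an Ensembl gene held 65.7% to 78.3% of them. Expression is given as CPM, counts scaled to a common library total after TMM normalization, where 3 counts in a sample, taken as the smallest number that can be told from 0, were 0.365 to 1.02 CPM. As a check of fiber type, 6 slow-fiber genes could be matched to a single locus: the slow troponins TNNT1, TNNC1 and TNNI1, the slow myosin light chain MYL3, the Z-disc protein MYOZ2 and the slow tropomyosin TPM3. The mean of each was lowest in ST, and highest in PM for all but MYOZ2, which was highest in SS. Their summed level per sample was 53.4 to 107 CPM in ST, 116 to 372 in LL, 179 to 487 in RF and 174 to 546 in SM. It was 280 to 597 CPM in GM, 379 to 560 in AD, 502 to 776 in GB, 622 to 1030 in SS and 908 to 1310 in PM. The study had listed all 6 of these genes from the same ST and SS samples, so they are no independent check of those muscles. Markers of fast fibers, vessels, nerve, fat and blood were not analysed here.

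The study also named the genes described here after contrasts with SS, ATP2A2 and CASQ2 from ST against SS and ATP2A2 and PVALB from SM against SS. Values of those contrasts, and of other pairs and joint tests that include ST, SM or SS, are given as a description. The 15 pairs among GB, GM, RF, LL, AD and PM involve none of the samples that led to the choice. A pair of muscles was called different at an FDR of at most 0.01 with an absolute log2FC above 1 (quasi-likelihood test of edgeR, FDR by Benjamini-Hochberg over the 12461 loci tested), and every FDR below comes from that test. All 3 genes passed the filter on low counts. PVALB passed it only through 9 samples of ST, RF and SS, so a difference between these muscles and the others was built into its passing. Its calls, joint tests and ranks are therefore given as a description.

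ATP2A2, the pump, was expressed in all 36 samples and its mean rose from 55.8 ± 10.4 CPM in ST to 421 ± 85.6 CPM in PM (SD, n = 4 here and below). The 4 lambs, taken in the order 1 to 4 here and below, had 44.3, 53.8, 55.4 and 69.6 CPM in ST. In SM, with a mean of 110 ± 30.5 CPM, they had 100.1, 81.2, 153 and 106.5 CPM. In LL, with a mean of 121 ± 56.7 CPM, they had 102.7, 200.4, 112.9 and 66.8 CPM. ST lay below every SM sample, whereas its highest sample exceeded the lowest LL sample, that of lamb 4.

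AD, GM, RF and GB formed a middle range of ATP2A2 with wide overlap. AD had 139.3, 190.2, 230.9 and 200.9 CPM and GM 199.2, 198, 282.6 and 117.7 CPM. RF ran from 115.5 and 168.6 CPM in lambs 1 and 2 to 263 and 298.4 CPM in lambs 3 and 4, the widest absolute spread of these 4 muscles. GB had 229.9, 234.7, 348.8 and 250.9 CPM. Means were 190 ± 38.1 CPM in AD, 199 ± 67.3 in GM, 211 ± 84.2 in RF and 266 ± 55.9 in GB, and no pair among these 4 muscles was called.

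SS and PM stood at the top for ATP2A2. SS had 319.3, 388.7, 446.5 and 463 CPM, a mean of 404 ± 65.1, and PM had 355.6, 530.6, 447 and 350 CPM. These 2 muscles overlapped and were not called different (log2FC of SS minus PM -0.06, SE 0.18, FDR = 0.93). Here and below, log2FC is the fitted value of the model. The SE is that of the mean of the 4 within-lamb differences in log2 CPM, a mean that can differ from the fitted value where counts are few. Within lambs, PM held 8.02, 9.86, 8.07 and 5.03 times the ATP2A2 of ST. For SS over ST the folds were 7.2, 7.22, 8.06 and 6.66, nearly the same in every lamb. ST was the lowest muscle in lambs 1 to 3 and LL in lamb 4, while PM was highest in lambs 1 to 3 and SS in lamb 4.

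**Figure D1:**
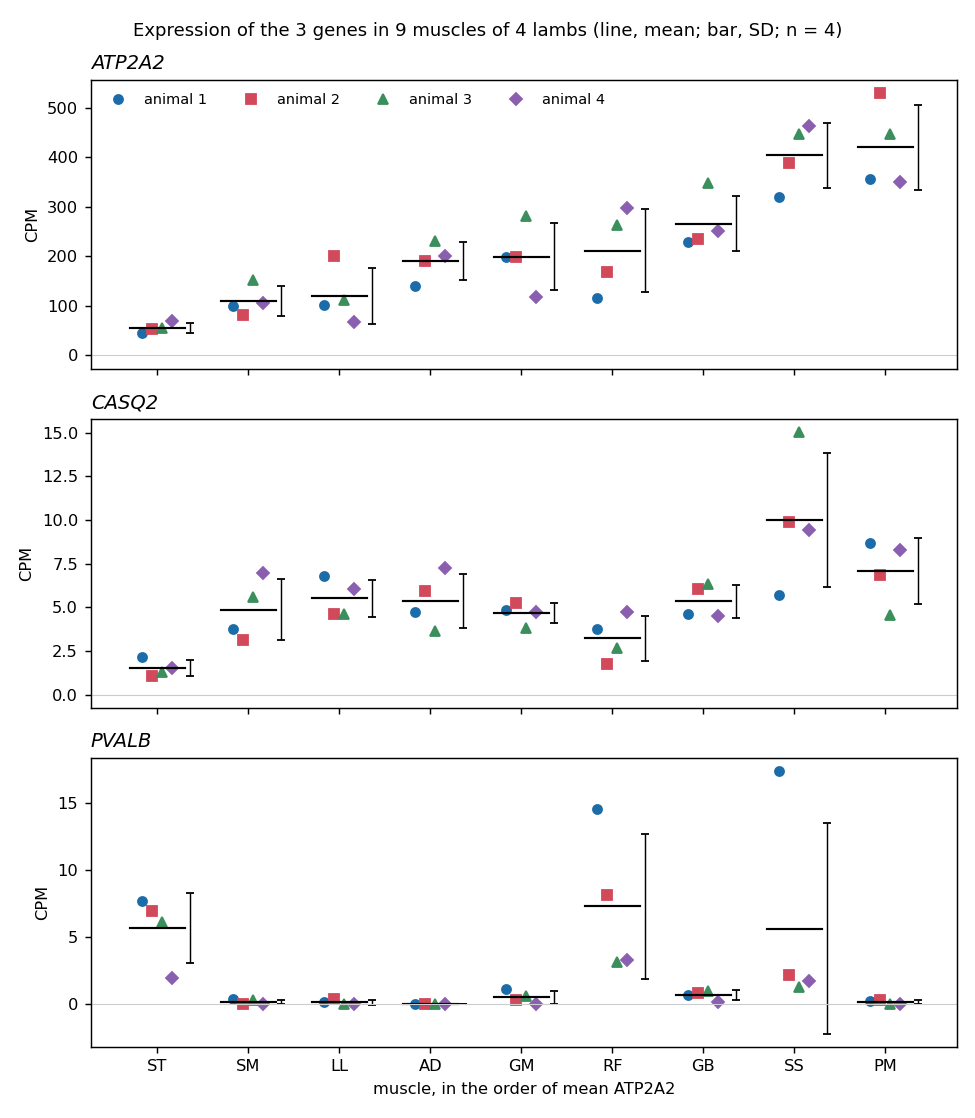
Expression of ATP2A2, CASQ2 and PVALB in CPM (vertical axes, linear) in 9 muscles ordered by mean ATP2A2 (horizontal axis), with 1 symbol per lamb, a line at the mean and a bar of 1 SD over the 4 lambs. ATP2A2 climbs from 55.8 CPM in ST to 421 CPM in PM, CASQ2 is lowest in ST and highest in SS, and PVALB is at or near 0 outside ST, RF and SS, where lamb 1 stands out in SS at 17.4 CPM.

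Over the 36 pairs of muscles ATP2A2 was called in 13, against 0.739% of all tests of loci in pairs. The joint test over the 9 muscles gave an FDR of 7.1e-09, where 9.73% of all loci passed 0.01. Both results include the ST, SM and SS samples from which ATP2A2 was chosen, so they are a description only. Among the 6 muscles outside the study's choice its joint FDR was 0.00029, where 1.56% of loci passed, and 1 of the 15 pairs was called, against 0.19% of all such tests. That pair was LL and PM, with no overlap and a log2FC of -1.8 for LL minus PM (SE 0.2, FDR = 5.7e-05). Another 8 of these 15 pairs had an unadjusted p under 0.05 by the quasi-likelihood test. The share of all loci under that p was not taken, and the pairs share muscles, so this number is a description only. The joint FDR over the 6 muscles was 0.033 without lamb 1 and 0.037 without lamb 3, and the call of LL and PM was lost without lamb 3. Without lamb 2 or lamb 4, 3 of the 15 passed.

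ST had less ATP2A2 than 7 of the other 8 muscles. Its log2FC was -2.24 against GB (SE 0.17, FDR = 9.7e-07) and -2.91 against PM (SE 0.21, FDR = 5.9e-09). Against GM, RF and AD it was -1.82, -1.89 and -1.75, and against SS -2.85. LL was the weakest of the calls (log2FC -1.11, SE 0.4, FDR = 0.0071, lower in ST in 3 of 4 lambs), and it was lost with lamb 1, 2 or 3 left out, with an FDR of 0.12, 0.087 and 0.066. RF had an FDR of 0.019 without lamb 3. SM was the exception, with a log2FC of -0.97 and an FDR of 0.026 although the samples of ST and SM did not overlap, and it was called without lamb 4 (log2FC -1.11, FDR = 0.0087). Of all loci tested, 0.851% were called lower in ST than in GB, 1.56% than in GM, 0.201% than in RF, 0.786% than in LL, 0.778% than in AD, 0.875% than in PM and 0.305% than in SM.

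SS had more ATP2A2 than SM, ST, LL and AD. The log2FC was 1.88 against SM (SE 0.17), 1.74 against LL (SE 0.38, FDR = 1.6e-05) and 1.1 against AD (SE 0.062, FDR = 0.0093). The shares of loci called higher in SS were 2.49% against SM, 1.56% against ST, 1.16% against LL and 0.297% against AD. Against GM and RF the SS samples did not overlap the others but the FDR was 0.022 and 0.058. The call against AD was the closest to the threshold, with an FDR of 0.089, 0.018 and 0.12 when lamb 1, 2 or 3 was left out. PM was called higher than SM, ST and LL, where 0.293% of loci were called higher in PM over its 8 pairs pooled. GB was called higher than SM without overlap (log2FC of SM minus GB -1.27, SE 0.081, FDR = 0.0072). Over all 36 pairs pooled, 0.739% of tests were called. In the order of mean levels no neighboring muscles were called different for ATP2A2.

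CASQ2, the calcium store, was counted far more thinly. Its counts per sample were 8, 5, 8 and 7 in ST, that is 2.12, 1.09, 1.32 and 1.5 CPM. RF followed with 3.75, 1.75, 2.66 and 4.72 CPM. ST was the lowest muscle in 4 of 4 lambs, and its 4 samples and those of RF overlapped.

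In the broad middle of CASQ2, GM, SM, GB, AD and LL had means of 4.66 ± 0.586, 4.85 ± 1.75, 5.36 ± 0.946, 5.39 ± 1.55 and 5.52 ± 1.08 CPM. Single samples of these 5 muscles ran from 3.11 CPM in SM to 7.23 CPM in AD. PM reached 8.7, 6.84, 4.54 and 8.28 CPM, a mean of 7.09 ± 1.88. SS had 5.72, 9.86, 15.05 and 9.44 CPM, from 25, 68, 85 and 49 counts. SS was thus highest in lambs 2 to 4 and PM in lamb 1, where SS came after PM and LL. The mean of SS was 10 ± 3.84 CPM and that of ST 1.51 ± 0.444 CPM. Within lambs 1 to 4, SS held 2.69, 9.06, 11.4 and 6.28 times the CASQ2 of ST, a wider range of folds than that of ATP2A2.

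Of the 36 pairs, 9 were called for CASQ2, and each of them had ST or SS in it. ST was lower than all other muscles but RF, from a log2FC of -1.64 against GM (SE 0.19, FDR = 0.00063) to -2.24 against PM (SE 0.18, FDR = 3.8e-06), with -2.76 against SS. Against RF it was -1.07 (SE 0.2, FDR = 0.11), lower in ST in 4 of 4 lambs. SS was higher than RF (log2FC 1.69, SE 0.46, FDR = 0.00025) and SM (log2FC 1.08, SE 0.28, FDR = 0.0058), besides ST. The mean within-lamb differences, to which the SEs belong, were -1.54 for RF minus SS, -0.98 for SM minus SS and -1.99 for ST minus PM. Of all loci, 0.12% were called higher in SS than in RF. The other pairs with SS were not called, among them GB with an FDR of 0.054 and GM with an FDR of 0.011, where 0.201% and 0.144% of loci were called higher in SS, and PM with an FDR of 0.29, where 0.361% were.

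The calls of CASQ2 with SS depended on single lambs. Without lamb 1 they numbered 5 of 8, without lamb 2 or lamb 3 only 1, that against ST. SS and SM then had an FDR of 0.059 and 0.083, and SS and RF 0.022 and 0.043. Without lamb 4 the FDR of SS and SM was 0.014. Of the calls with ST, that against SM had an FDR of 0.016 without lamb 3 and 0.075 without lamb 4, and that against GM 0.016 without lamb 2 and 0.012 without lamb 4. In the joint tests CASQ2 had an FDR of 6.8e-07 over the 9 muscles and 0.084 over the 6 muscles outside the study's choice. The first includes the ST and SS samples from which CASQ2 was chosen and is a description only. In those 6 muscles 0 of 15 pairs were called by the quasi-likelihood test, with 6 at an unadjusted p under 0.05. The latter number has no share of all loci beside it and is a description only. DESeq2 called 0 and the likelihood ratio test 1. No neighbors in the order of means differed by the test.

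**Figure D2:**
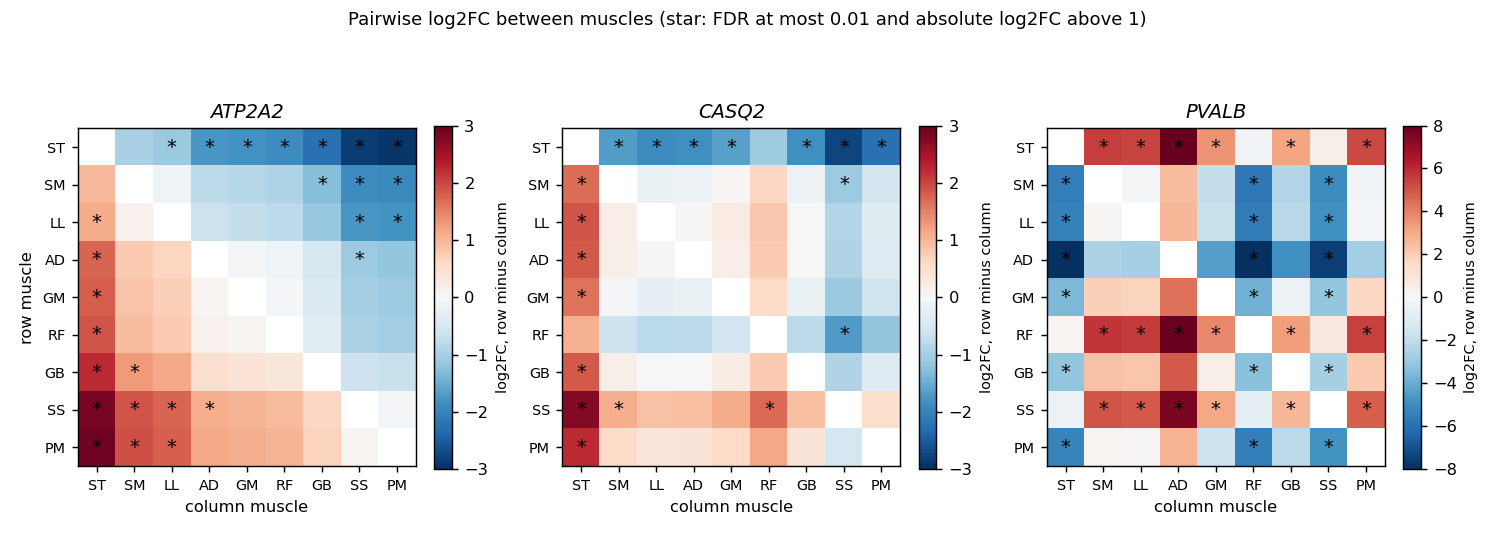
Fitted log2FC of each pair of muscles (color, row minus column, with its own scale for each gene) for ATP2A2, CASQ2 and PVALB, with a star where the FDR was at most 0.01 and the absolute log2FC above 1. ATP2A2 has 13 starred pairs, most of them with ST or SS but 3 with neither. CASQ2 has 9, all with ST or SS. The 18 starred pairs of PVALB join each of ST, RF and SS to each of the other 6 muscles. Fitted values of PVALB against muscles with few or no counts depend on the small count edgeR adds.

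PVALB, the cytosolic buffer, had few or no counts in 6 muscles and was detected in every sample of the other 3. No count fell on it in the 4 AD samples, which allows 3 counts over the muscle. SM had 1, 0, 1 and 0 counts, LL 1, 2, 0 and 0, and PM also 1, 2, 0 and 0. GM had 4, 2, 5 and 0 counts and GB 4, 6, 5 and 1. The means of these 6 muscles, 0 to 0.662 CPM, lay within or under the range of 3 counts per sample. GB, with 16 counts and at least 1 in every lamb, did not overlap AD (unadjusted p = 0.00041, FDR = 0.045), but no pair among these 6 muscles passed the threshold of 0.01.

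The 3 muscles with PVALB were RF, ST and SS. RF had 74, 56, 19 and 18 counts, or 14.6, 8.15, 3.16 and 3.27 CPM, and a mean of 7.29 ± 5.39. ST had 29, 32, 37 and 9 counts, or 7.7, 6.97, 6.1 and 1.93 CPM, and a mean of 5.68 ± 2.58. SS had 76, 15, 7 and 9 counts, or 17.4, 2.17, 1.24 and 1.73 CPM, so that lamb 1 alone gave 71% of its counts. The mean of SS was 5.63 ± 7.84 CPM with that lamb and 1.72 ± 0.468 CPM (SD, n = 3) without it. These 3 muscles overlapped one another, and none of the pairs among them was called. The highest of the 9 muscles was SS in lamb 1, RF in lambs 2 and 4 and ST in lamb 3.

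The lambs themselves differed in PVALB. Over the 9 muscles the mean was 4.69 CPM in lamb 1, 2.12 in lamb 2, 1.37 in lamb 3 and 0.786 in lamb 4. ATP2A2 means of the lambs lay between 178 and 260 CPM and those of CASQ2 between 4.94 and 5.93 CPM. The lamb took 8.37% of the variance of log2 CPM in PVALB, 4.19% in ATP2A2 and 2.96% in CASQ2, against a median of 15.4% over all loci. Muscle took 82.6%, 85.3% and 77.8%, against a median of 28.7%. All 3 genes were chosen for differences between muscles, and PVALB passed the filter only through ST, RF and SS. A large share of muscle was thus favored in advance, and these shares are a description only.

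All 18 pairs between RF, ST or SS on one side and the other 6 muscles on the other were called for PVALB, and no other pair was. Over those pairs pooled, 0.242% of loci were called higher in RF, 0.598% in ST and 0.774% in SS. From summed counts, RF had 11.2 times the PVALB of GB (95% exact interval 6.68 to 20) and 17.1 times that of GM (9.34 to 35). Against SM, LL and PM, with 2, 3 and 3 counts in all, the ratios were 71.4 (19.5 to 595), 55.4 (18.6 to 271) and 54 (18.2 to 265). RF was at least 53.2-fold higher than AD, set at 3 counts over the muscle. For ST the ratios were 8.8 to GB (5.18 to 16) and 13.5 to GM (7.26 to 27.9), and for SS 7.6 (4.47 to 13.8) and 11.7 (6.26 to 24.1). ST was at least 41.9-fold higher than AD, and SS at least 36.2-fold. Without the SS library of lamb 1, which left 31 counts, the ratios of SS were 2.74 to GB (1.46 to 5.37) and 4.21 to GM (2.06 to 9.29), and SS was at least 13.1-fold higher than AD. Leaving the library of lamb 1 out of RF or ST lowered their ratios to GB to 7.94 and 8. In these ratios the muscles compared with RF, ST and SS kept lamb 1. The intervals come from counts summed over lambs, so they cover counting error only, not the spread between lambs. Reads copied from 1 molecule could not be told apart, because the libraries carry no molecular identifiers.

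Of the PVALB calls, 5 fell among the 15 pairs outside the study's choice, all of RF. The log2FC of GB minus RF was -3.36 and that of GM minus RF -3.82 (SE 0.49 and 0.41, FDR = 0.00015 and 1.2e-05). The mean within-lamb differences, to which these SEs belong, were -2.74 and -3.06. The joint FDR was 6.1e-13 over 9 muscles and 4.3e-11 over 6, and in both tests PVALB ranked 2 by p among 12461 loci. PVALB had passed the filter only through samples of ST, RF and SS, so these values are given as a description too. SS against GB had a log2FC of 2.66 (SE 0.82, FDR = 0.005) and was the only pair of neighbors in the order of means that was called, for any of the 3 genes. The mean within-lamb difference of GB minus SS, to which the SE belongs, was -1.88. Without SS of lamb 1 the FDR of this pair was 0.085 and that of SS against GM 0.023, and the calls fell to 16 of 36. With lamb 2 or lamb 4 left out, SS against GB had an FDR of 0.011 and 0.042. The remaining 4 calls of SS, against SM, LL, AD and PM, were kept without that library.

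The reservoir and the pump tended to rise together across the 9 muscles, and the buffer did not follow them. In the order of means from the lowest, RF was 6 for ATP2A2 and 2 for CASQ2, and LL 3 and 7. Over the 36 samples, with log2 CPM centered on each lamb, Pearson's r between ATP2A2 and CASQ2 was 0.701, and within lambs 1 to 4, over 9 muscles each, it was 0.783, 0.828, 0.669 and 0.566. The r between ATP2A2 and PVALB was -0.11 and that between CASQ2 and PVALB -0.432. With SS left out, r was 0.661 between ATP2A2 and CASQ2, -0.319 between ATP2A2 and PVALB and -0.71 between CASQ2 and PVALB. The samples of ST were in all of them. These coefficients are descriptions across samples that share lambs and libraries, and the genes were chosen for contrasts of the same muscles. ATP2A2 and CASQ2 were both chosen from ST against SS, so their r over muscles that include these was partly set by the choice.

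Among 9293 annotated loci that were tested, the 5 most like ATP2A2 by this correlation were 4 of the slow-fiber genes and ENSOARG00000019316, a gene for which no name was paired here (r = 0.964). TNNI1 had r = 0.963, TNNC1 0.936, TNNT1 0.934 and TPM3 0.919. ENSOARG00000019316 averaged 220 CPM in ST against 2550 CPM in SS, and TNNI1 5.59 against 59.8 CPM. For CASQ2 the list was led by MYOZ2 (r = 0.801) and also held TNNT1 (0.767), TPM3 (0.755) and 2 genes without a paired name. Without lamb 2, only 1 of these 5 stayed among the first 5 of CASQ2. The 5 most like PVALB held none of the slow-fiber genes, and the first, ENSOARG00000009069, had r = 0.891, with means of 59.4 CPM in ST and 48.6 CPM in SS. Its mean over all 36 samples was 42.2 CPM, and it was called in 0 of the 36 pairs, unlike PVALB with 18. The slow-fiber genes had r from -0.469 for MYL3 to -0.246 for TNNI1 with PVALB. What part the content of slow fibers had in the differences of ATP2A2 and CASQ2 was not tested.

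**Figure D3:**
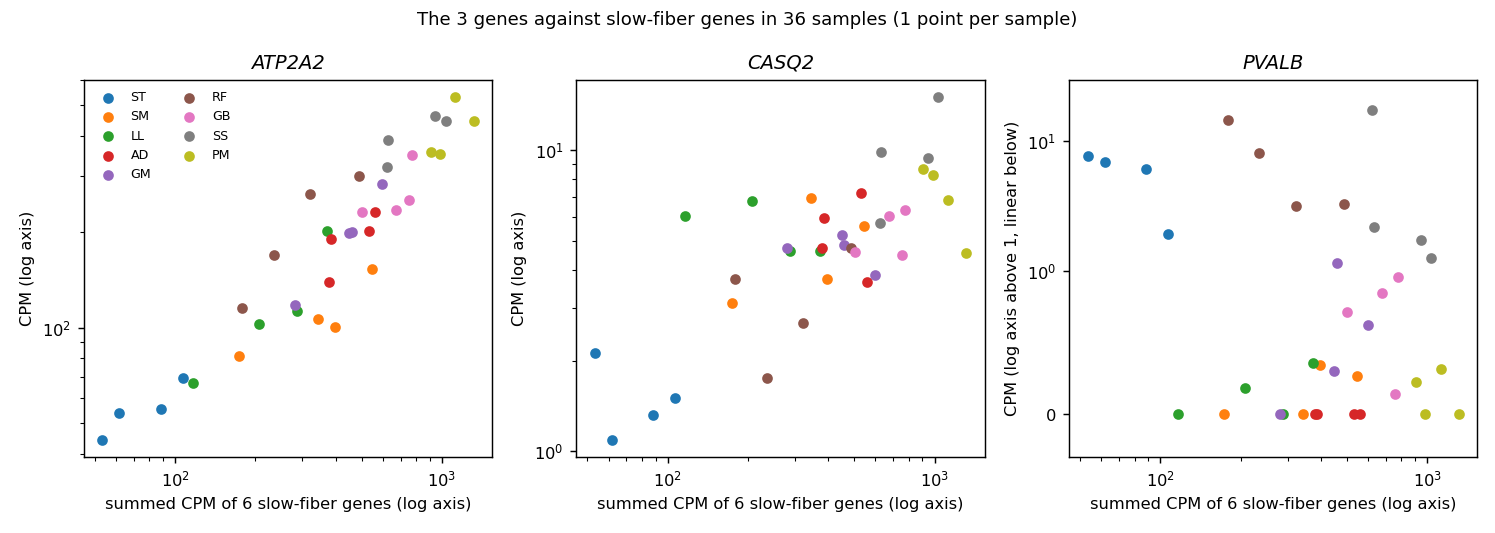
CPM of ATP2A2, CASQ2 and PVALB (vertical axes, logarithmic, for PVALB linear below 1) against the summed CPM of 6 slow-fiber genes (horizontal axes, logarithmic), with 1 point per sample and a color per muscle. ATP2A2 follows the slow-fiber sum over all 36 samples, and CASQ2 follows it more loosely. The PVALB samples above 1 CPM belong to ST, RF and SS but for 1 GM sample. The slow-fiber sums are 53.4 to 107 CPM in ST, 179 to 487 in RF and 622 to 1030 in SS.

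The balance of ATP2A2 to the slow-fiber genes was not the same in every muscle. The log2 ratio of ATP2A2 to the slow-fiber sum was -0.44 ± 0.24 in ST and -0.53 ± 0.18 in RF, the highest values. SS and LL had -0.97 ± 0.21 and -1.01 ± 0.24, and GM -1.18 ± 0.07. AD, GB and PM had -1.29 ± 0.19, -1.35 ± 0.24 and -1.37 ± 0.21, and SM the lowest ratio, -1.65 ± 0.39. ST, with the least of either, thus had the highest mean ratio, but it differed from that of RF by less than either SD. SM, with more of both than ST, had the lowest. The slow-fiber genes were all in the study's list for ST against SS, where each fell more in ST than ATP2A2 did. A higher ratio in ST than in SS was therefore set by the choice of genes, and no conclusion is drawn from it. The place of ST in this order is a description only. No test was run on this ratio.

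The balance of pump to store was likewise described without a test. The log2 ratio of ATP2A2 to CASQ2 counts within a library, with 0.5 added to both and no correction for gene length, was lowest in LL at 4.34 ± 0.85 and in SM at 4.5 ± 0.39. It was 5.13 ± 0.56 in ST, 5.14 ± 0.55 in AD, 5.34 ± 0.64 in GM, 5.39 ± 0.39 in SS and 5.61 ± 0.24 in GB. PM and RF had the highest means, 5.89 ± 0.63 and 6 ± 0.78. In LL the lambs had 3.9, 5.41, 4.59 and 3.45, and in RF 4.91, 6.54, 6.58 and 5.96, so that the muscles at the ends of the order overlapped. The SM samples, from 3.92 to 4.74, lay below all samples of AD, SS, RF, GB and PM. ST and SS, the muscles at the ends of CASQ2, had means of this ratio within 1 SD of each other.

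**Figure D4:**
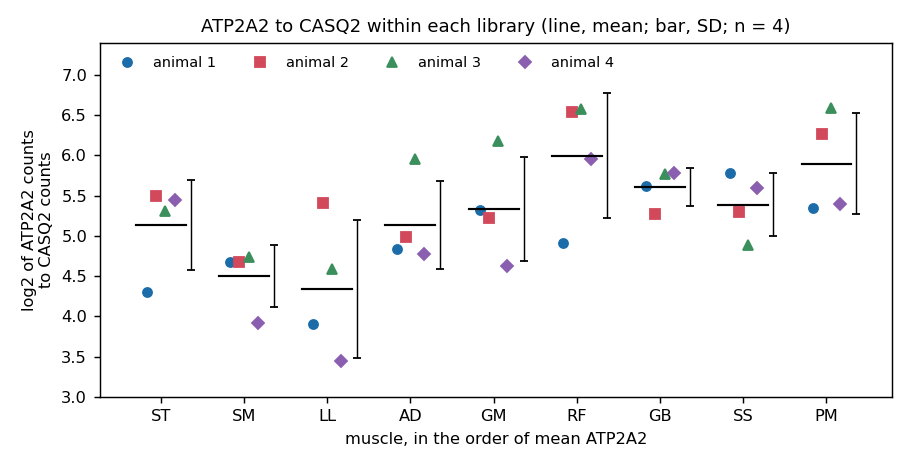
Log2 ratio of ATP2A2 to CASQ2 counts in each library (vertical axis) in 9 muscles ordered by mean ATP2A2 (horizontal axis), with 1 symbol per lamb, a line at the mean and a bar of 1 SD over 4 lambs. Means run from 4.34 in LL to 6 in RF, and the SDs of most muscles are as wide as the steps between them.

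Loci around the 3 genes were compared between SS and ST. Within 200000 bases of ATP2A2 lay 14 other loci, of which 7 were tested, and their log2FC of SS minus ST ran from -0.76 to 0.93 with FDR of 0.065 or more, against 2.85 for ATP2A2. None of the 4 loci near CASQ2 had enough counts to be tested. Of 9 loci near PVALB 2 were tested, with log2FC of -0.3 and 1.03, and neither was called between SS and ST, although the FDR of the second rounds to 0.01. PVALB itself had a log2FC of -0.49 in this contrast and was not called.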

How the data were processed

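RNA-Seq counts of 36 samples (9 muscles, 4 lambs) were used. The authors mapped the reads with TopHat2 2.0.13 to Oar_v3.1, assembled transcripts with Cufflinks 2.2.1 and the Ensembl annotation, counted reads per locus with HTSeq, and deposited whole-number counts without normalization. Each table has 31530 entries. A locus listed under several Ensembl genes repeats its counts, so 394 repeats were dropped and 31136 loci kept. No pair of libraries held identical counts.

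Loci were filtered with filterByExpr by muscle (12461 kept) and TMM-normalized on totals of all loci. All 36 samples entered 1 model of muscle and animal in edgeR 4.0.16 (limma 3.58.1, R 4.3.3), using the robust quasi-likelihood fit. Each of the 36 pairs was tested with Benjamini-Hochberg adjustment, as were all 9 muscles and the 6 muscles GB, GM, RF, LL, AD and PM jointly. The common biological coefficient of variation was 0.195. Log2 CPM used a prior count of 2. The number in each sample title was taken as the animal, which gave the pairing. Samples with the same number deviated together from the muscle means (mean r 0.236 over 144 pairs, -0.0777 over 432 pairs of different numbers and muscles). The procedure was tested on simulated data. Depth was 3699148 to 6427422 counts per sample, and precision follows from each locus's own counts.

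The members and lists were chosen with earlier results of these data known. Named genes are the 3 members, the 5 annotated loci most correlated with each (at most 2 identifiers without a name are printed), and slow-fiber genes. Names came from coordinates in the study's tables. Of 9 slow-fiber names 6 had a single locus. A wider list of calcium genes, markers of other cell types and promoter motifs could not be matched here and were not analysed. The alternatives were DESeq2 1.42.0, the likelihood ratio test, RLE factors, library sizes without the 4 most counted loci, other filters, an FDR of 0.05, no animal, fits of 8 samples and each animal left out. The default quasi-likelihood settings and the fit without SS of lamb 1 were chosen after seeing the data. So were the PVALB ratios with lamb 1 left out of RF, ST or SS only.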

Additional observations from a re-analysis of the deposited data

Results flagged for a closer look

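PVALB in SS was 17.4 CPM in lamb 1 against 1.24 to 2.17 CPM in the other 3 lambs. The gap from this sample to the next was 0.942 of the range of the group, beyond Dixon's limit for 4 samples. Of 26 groups of 4 samples examined this was the 1 past its limit, and chance alone passes about 1 in 20. Lamb 1 was also highest for PVALB in RF and ST, with 14.6 and 7.7 CPM. ATP2A2 and CASQ2 in the same SS library were the lowest of the 4 SS samples, at 319.3 and 5.72 CPM.

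A locus without an Ensembl gene, on chromosome 17 from 53861934 to 53862716 and 1771 bases beyond the end of ATP2A2, had 29 counts over the 4 SS samples, in data that none of the comparisons used. It had 17 counts in GB, 10 in GM, 7 in LL, 5 in SM, 4 in PM, 3 in RF, 3 in AD and 0 in ST, where 3 would have been allowed. PM, the muscle with the most ATP2A2, thus had 4 counts beside 9627 of ATP2A2, and SS 29 beside 9001. The locus did not pass the filter on low counts, and the difference was not tested.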

How the results depend on the processing

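The pairing by animal was taken out in 1 alternative. Without the replicate block, ATP2A2 was called in 10 of 36 pairs, CASQ2 in 8 and PVALB in 14, and the joint FDR over 6 muscles was 0.0029, 0.25 and 1.1e-06. The count of ATP2A2 among the 15 pairs, 1 in the report, was 3 at an FDR of 0.05, 4 with the likelihood ratio test, 5 with DESeq2, and 2 with at least 10 counts in every sample, with the default quasi-likelihood settings or in fits of 8 samples. That of CASQ2, 0 in the report, was 1 at an FDR of 0.05, with the likelihood ratio test, with no filter and without SS of lamb 1. In fits of 8 samples with the block, PVALB was tested in 9 pairs and called in 6, and in 0 of the 2 tested pairs with SS and of the 2 with ST, because fewer pairs passed the filter. DESeq2 called PVALB in 16 of the 25 pairs for which it gave an FDR.

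Leaving out 1 animal at a time, or SS of lamb 1 alone, the pairs called of 36 were 8 to 15 for ATP2A2 (8 without animal 3), 6 to 12 for CASQ2 and 15 to 18 for PVALB. The calls among 15 pairs were 0 to 3 for ATP2A2 and 0 to 1 for CASQ2, and its calls with SS 1 to 5. The joint FDR of ATP2A2 over 6 muscles was 4.7e-05 to 0.037. Differences near 0 changed sign for ATP2A2 between SS and PM (log2FC -0.22 to 0.07 over these fits, 0.07 without animal 2) and for PVALB between ST and RF (-0.59 to 0.02, 0.02 without animal 1). The cause of these shifts was not tested. With 2 added to both counts, every mean ratio of ATP2A2 to CASQ2 moved by less than its SD. The list of loci most like PVALB kept 2 of 5 without centering on animals. Depth limits PVALB outside ST, RF and SS, and CASQ2 in ST with 28 counts in all.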
